A study of Mus musculus with 16 samples.

Results

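The control cultures of a knockdown experiment were compared between 2 days: 4 libraries of neural stem cells (NSC) on day 5 after seeding and 4 on day 7, which are 8 of the 16 libraries measured. Members were chosen by label alone, as the libraries whose treatment is given as the scrambled shRNA. All of them came from cortices of C57BL/6 mouse embryos at E15 to E16, and all carried a lentiviral shRNA of scrambled sequence (shRNA CON). On day 5, cells had grown as a monolayer on poly-D-lysine in DMEM-F12 with B27, fetal calf serum and the growth factor FGF2. From day 5 the medium was Neurobasal with B27 and GlutaMAX, for which the labels list neither serum nor FGF2, and day 7 cultures had spent 2 days in it. Time in culture and the change of medium therefore cannot be told apart. Cortices of embryos of both sexes were pooled, so a library does not stand for a single animal. Whether both days share a pool is not given in the labels, so a difference between pools cannot be told apart from time or medium either. The labels number replicates 1 to 4 within each day and do not say whether they are separate dissections, so p-values measure the spread between these libraries. The other 8 libraries are from cells with an shRNA against the lncRNA *RUS* (shRNA RUS). They serve here only for the test of whether the day effect differed and for 1 alternative fit over 16 libraries. The question the comparison addresses is how gene expression moves during the first 2 days of differentiation when no gene is targeted.

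Cortical NSC divide in response to FGF2, which signals through the ERK kinases, and they keep the transcription factors Sox2 and Pax6. When the growth factor is withdrawn they leave this state and can become neurons, astrocytes, oligodendrocytes or ependymal cells. Ependymal cells line the ventricles and carry many motile cilia. To make them, the coregulators Gmnc and Mcidas switch on a program of centriole amplification, and Foxj1 then switches on the genes of the ciliary shaft.

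PolyA RNA was sequenced, and the deposited values are TPM, a transcript's share of all transcripts of a library. TPM keeps no read number, so the depth is unknown and no counting interval can be given. To make libraries comparable, each was divided by its median ratio, over 14368 genes, to the gene's geometric mean across the 8 control libraries, and the quotient is called scaled TPM. It is a level per transcript length. These divisors were 0.921 to 0.995 on day 5 and 1.04 to 1.07 on day 7. Tests used limma on log2(scaled TPM + 0.1) on the 24038 genes whose mean reached 0.1 TPM, and a call means an adjusted p (Benjamini-Hochberg) under 0.05. Log2 fold changes are day 7 minus day 5 on that scale, which understates the change of genes near 0.1 TPM. Errors are SD of 4 libraries or the standard error (SE) of limma. Positions are GRCm38 from GENCODE vM21, matched by symbol.

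The days differed broadly. Of the 24038 genes, 6653 (27.7%) were called higher on day 7 and 5290 (22.0%) lower, and 12095 were not called. In 6262 genes (26.1%) all 4 libraries of day 7 lay above all 4 of day 5, and in 4978 (20.7%) below. These shares are the background against which each gene list is read. Over all genes the median log2 fold change was 0.074. With TPM as deposited it was 0.21, and 71.5% instead of 55.7% of the calls were then higher, so small changes are to be read against that shift. A change of at least 2-fold was called in 2040 genes upward and 907 downward. The first principal component carried 43.3% of the variance and placed day 5 between −65.6 and −56.2 and day 7 at 59.6 to 62.2 (p = 0.0286 in a two-sided exact permutation test, the smallest that 4 against 4 allows). Correlations of log2 levels across genes were 0.972 to 0.977 within a day and 0.950 to 0.955 between days.

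**Figure D1:**
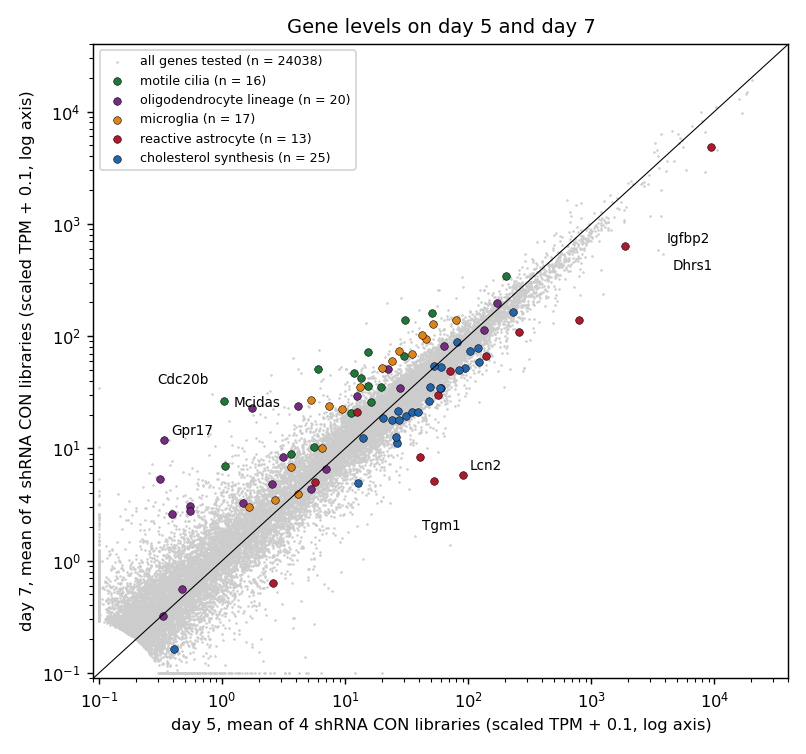
Mean scaled TPM of each gene on day 5 (horizontal axis) and day 7 (vertical axis) in the 4 shRNA CON libraries of each day, with 0.1 added and both axes logarithmic. Grey points are all 24038 genes tested and the line marks equal levels. Motile cilia, oligodendrocyte and microglia genes lie mostly above the line, and reactive astrocyte and cholesterol genes mostly below it, with *Cdc20b* and *Gpr17* farthest above and *Tgm1* and *Lcn2* farthest below among the genes named by rule.

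Most genes of motile cilia rose. All 16 genes of the motile cilia list were called higher on day 7, and in all 16 the libraries of the 2 days did not overlap, with a median log2 fold change of 1.47. *Foxj1*, the transcription factor of motile cilia, had 185, 188, 195 and 243 scaled TPM on day 5 and 343, 343, 384 and 290.0 on day 7 (log2 fold change 0.75, SE 0.10, limma adjusted p = 2.91e-04). *Rsph1*, a protein of the radial spoke that regulates ciliary beating, had 51.2, 48.9, 53.05 and 51.3 scaled TPM on day 5 and 161, 152, 168 and 163 on day 7 (log2 fold change 1.66, SE 0.042, limma adjusted p = 1.45e-08). *Rsph1* varied little within a day, while replicate 4 was the highest *Foxj1* library of day 5 and the lowest of day 7 and still left the days apart. *Ccdc39*, a ruler that spaces the dynein arms, went from 30.5 to 140.3 scaled TPM on average (log2 fold change 2.20), and *Spag6l*, of the central pair of microtubules, from 15.3 to 71.9 (2.23). The list includes *Ccno* and *Mcidas*, given below, which had its largest changes. The smallest change was that of the dynein heavy chain gene *Dnah9*, 16.1 to 25.6 scaled TPM (log2 fold change 0.67). Symbol families were also collected after these values were seen, and they share *Cfap43*, *Dnah5*, *Dnah9* and *Dnah11* with this list: of 31 *Cfap* genes tested, which encode cilia and flagella proteins, 28 were higher, 1 lower and 2 not called, and of 12 *Dnah* genes 9 were higher, 0 lower and 3 not called. The tubulin gene *Tubb4b*, which is counted among mitotic genes below but also encodes the main tubulin of cilia, went from 634 to 1623 scaled TPM (log2 fold change 1.36).

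Regulators of centriole amplification rose with the ciliary genes, some of them from under 1 scaled TPM. A list of 18 genes, also drawn up after the values were seen, had 16 higher, 1 lower and 1 not called, with a median of 1.42. *Gmnc*, which starts the program, had 10.7, 7.89, 9.61 and 10.3 scaled TPM on day 5 and 18.3, 18.6, 19.3 and 21.01 on day 7 (log2 fold change 1.00, SE 0.096, limma adjusted p = 2.67e-05). Its downstream partner *Mcidas* had 0.884, 0.640, 1.08 and 1.16 scaled TPM on day 5 and 26.6, 25.4, 29 and 24.1 on day 7 (log2 fold change 4.69, SE 0.16, limma adjusted p = 5.05e-08). *Gmnc* was 2.00-fold higher on average, while *Mcidas* was near 1 scaled TPM in every day 5 library and above 24 in every day 7 library. *Deup1*, which builds the deuterosome, the platform for new centrioles, had 3.90, 3.41, 3.53 and 3.81 scaled TPM on day 5 and 64.9, 62.1, 63.99 and 66.3 on day 7 (log2 fold change 4.10, SE 0.055, limma adjusted p = 6.95e-10). *Myb*, a transcription factor that acts early in multiciliated progenitors, had 7.38, 4.88, 5.40 and 6.37 scaled TPM on day 5 and 74.2, 71.2, 76.3 and 78.1 on day 7 (log2 fold change 3.64, SE 0.11, limma adjusted p = 4.07e-08). *Plk4*, the kinase that starts centriole duplication in both dividing and multiciliated cells, had 18.1, 16.3, 15 and 15.8 scaled TPM on day 5 and 48.8, 47.1, 43.1 and 51.03 on day 7 (log2 fold change 1.54, SE 0.07, limma adjusted p = 2.75e-07). In each of these 3 genes the libraries of a day lay close together and far from those of the other day. *Foxn4* went from 0.530 to 6.21 scaled TPM and *Trp73*, the p53 relative that acts upstream of *Foxj1*, from 0.956 to 6.71, log2 fold changes of 3.33 and 2.72. *E2f5*, which pairs with *Mcidas* in the transcription complex of this program, was the member called lower (37.5 to 22.6 scaled TPM, log2 fold change −0.73), and its relative *E2f4* was not called (24.8 to 22.5 scaled TPM, limma adjusted p = 0.0726).

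**Figure D2:**
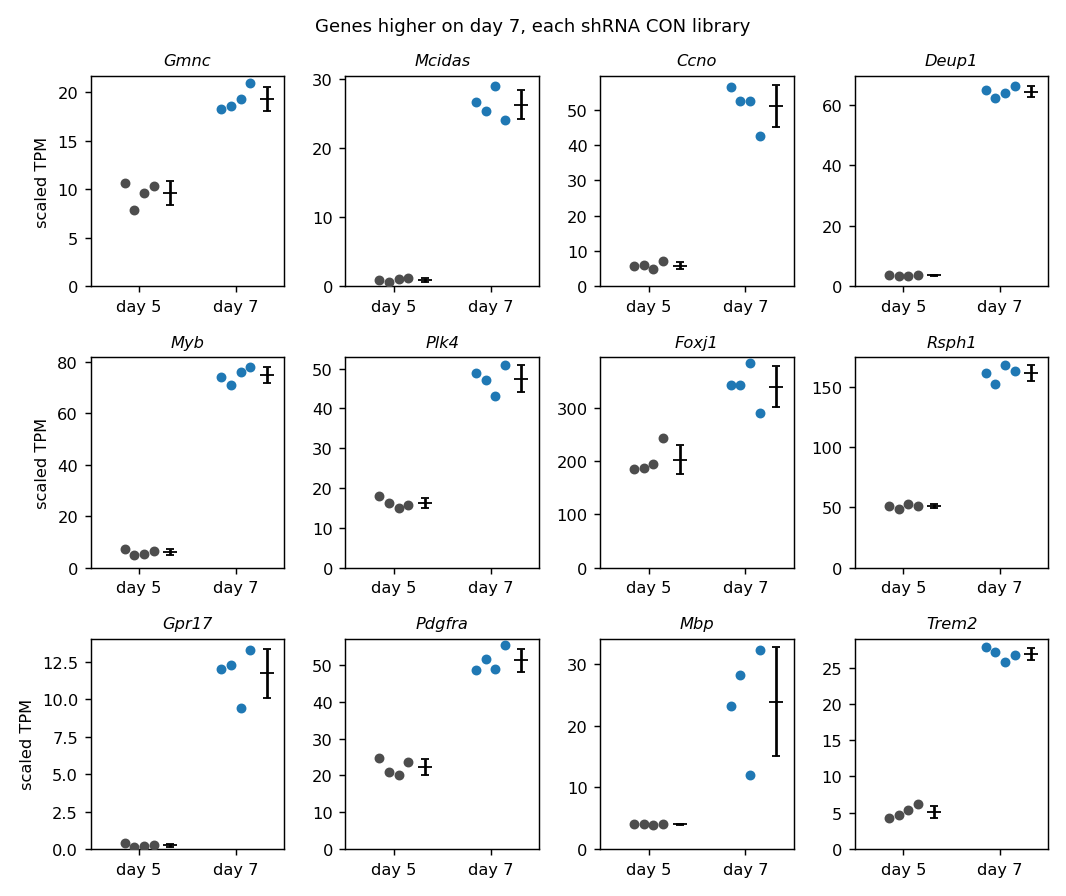
Scaled TPM of 12 genes in each shRNA CON library (points, replicates 1 to 4 from left to right within a day), with mean and SD of the 4 libraries (bars) on linear axes that start at 0. In every panel the 4 libraries of day 7 lie above the 4 of day 5. *Mcidas* goes from about 1 to about 26 scaled TPM, and *Mbp* on day 7 spans 12 to 32.3.

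*Ccno*, *Mcidas* and *Cdc20b* are neighbours on chromosome 13. *Ccno* lies at chromosome 13, 112987802 to 112990777, plus strand, *Mcidas* at chromosome 13, 112993845 to 113000394, plus strand and *Cdc20b* at chromosome 13, 113035111 to 113091195, plus strand, so they share 1 strand, with gaps of 3067 and 34716 bp and a span of 103394 bp. *Ccno*, an atypical cyclin required for centriole amplification, had 5.73, 5.96, 4.93 and 7.06 scaled TPM on day 5 and 56.3, 52.5, 52.4 and 42.6 on day 7 (log2 fold change 3.09, SE 0.12, limma adjusted p = 9.65e-08). *Cdc20b*, a deuterosome protein whose introns host the miR-449 genes, had 0.874, 0.391, 0.665 and 0.973 scaled TPM on day 5 and 30.96, 27.8, 31.04 and 30.8 on day 7 (log2 fold change 5.25, SE 0.22, limma adjusted p = 1.52e-07), among the largest increases of the genes named by rule. Levels on day 7 were within 2-fold of each other while those on day 5 ranged from 0.726 to 5.92. The next gene upstream, *Dhx29*, an RNA helicase of translation initiation, went from 15.7 to 17.8 scaled TPM (log2 fold change 0.18, limma adjusted p = 0.0175), and the next protein-coding gene beyond *Cdc20b*, the granzyme gene *Gzma*, from 0.0357 to 0.574 (log2 fold change 2.25, limma adjusted p = 0.00154). Both flanking genes were thus called higher as well, *Gzma* at under 1 scaled TPM on average on both days. *Gpx8*, a peroxidase gene within *Cdc20b* on the opposite strand, was lower on day 7, 223 to 138 scaled TPM (log2 fold change −0.69, limma adjusted p = 8.18e-06). Whether the authors' quantification used strand is not given in the sources used here, so reads in this overlap may have been shared between both genes.

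**Figure D3:**
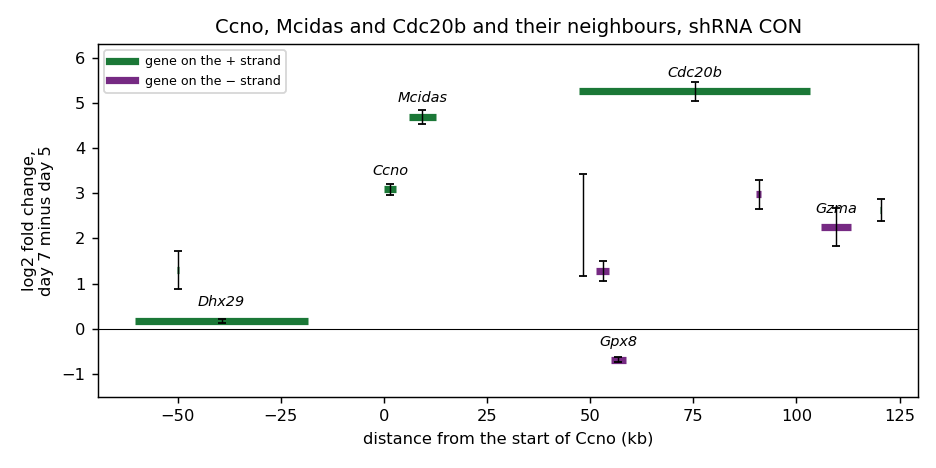
Log2 fold change, day 7 minus day 5 in shRNA CON, of each tested gene around *Ccno*, drawn as a bar over the gene's extent at its distance in kb from the start of *Ccno*; whiskers are the SE of limma and colours give the strand. *Ccno*, *Mcidas* and *Cdc20b* lie at 3.09, 4.69 and 5.25, while *Dhx29* lies at 0.18, *Gzma* at 2.25 and *Gpx8* at −0.69; unlabelled bars are genes whose means on both days were at most 1.27 scaled TPM.

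The promoters of the 3 neighbours are shown because these genes lie side by side and all rose. They are RefSeq sequences on GRCm38.p6, from 250 bases before to 50 after the start, 5′ to 3′ on the plus strand, at chr13:112987552-112987851, chr13:112993618-112993917 and chr13:113035129-113035428. The RefSeq start is that of the gene's extent given above for *Ccno* and lies 23 bases inside it for *Mcidas* and 268 for *Cdc20b*. Capitals mark GTTGCC, part of the motif of the RFX factors of ciliary genes, and GCGGGAA (read on the other strand as TTCCCGC), a core bound by E2F factors, both searched on both strands and both chosen after the values were seen.
Ccno: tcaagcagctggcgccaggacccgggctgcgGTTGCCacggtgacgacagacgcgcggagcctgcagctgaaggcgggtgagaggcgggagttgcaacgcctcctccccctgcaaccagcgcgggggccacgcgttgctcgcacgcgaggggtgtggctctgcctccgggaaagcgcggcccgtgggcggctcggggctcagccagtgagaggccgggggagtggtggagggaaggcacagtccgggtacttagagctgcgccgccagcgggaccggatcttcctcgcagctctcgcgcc
Mcidas: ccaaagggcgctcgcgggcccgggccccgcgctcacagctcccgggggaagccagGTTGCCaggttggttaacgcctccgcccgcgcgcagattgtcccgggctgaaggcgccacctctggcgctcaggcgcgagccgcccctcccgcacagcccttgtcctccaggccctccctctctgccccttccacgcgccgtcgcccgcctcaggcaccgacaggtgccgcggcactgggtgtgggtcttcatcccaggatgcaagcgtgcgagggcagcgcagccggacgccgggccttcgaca
Cdc20b: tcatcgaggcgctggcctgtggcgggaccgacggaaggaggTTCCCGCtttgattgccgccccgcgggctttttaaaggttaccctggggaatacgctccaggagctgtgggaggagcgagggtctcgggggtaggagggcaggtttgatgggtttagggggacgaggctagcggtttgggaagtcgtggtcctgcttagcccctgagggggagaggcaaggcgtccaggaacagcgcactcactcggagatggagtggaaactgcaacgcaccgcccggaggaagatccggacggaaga
GTTGCC stands at −219 in *Ccno* and −195 in *Mcidas*, counted from the RefSeq start, and does not occur in the window of *Cdc20b*, which holds GCGGGAA at −209. Of all 32851 promoters of the same length, 12.5% hold GTTGCC and 4.60% hold GCGGGAA, and a match describes the sequence, not a bound site.

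Most genes of the oligodendrocyte lineage rose. Of 20 genes tested, 14 were higher, 2 lower and 4 not called, with a median log2 fold change of 1.17. The 3 largest changes were in genes of cells that have just left the precursor stage. *Gpr17*, a receptor of committed precursors, had 0.372, 0.109, 0.201 and 0.257 scaled TPM on day 5 and 12, 12.3, 9.43 and 13.3 on day 7 (log2 fold change 5.20, SE 0.24, limma adjusted p = 2.64e-07). *Enpp6*, an early marker of newly forming oligodendrocytes, had 0.131, 0.152, 0.232 and 0.342 scaled TPM on day 5 and 4.76, 5.60, 3.36 and 7.07 on day 7 (log2 fold change 4.07, SE 0.27, limma adjusted p = 2.71e-06), and *Bcas1* of the same stage went from 1.66 to 22.8 scaled TPM on average (log2 fold change 3.71). Both *Gpr17* and *Enpp6* were under 0.4 scaled TPM in every day 5 library, and on day 7 replicate 3 was the lowest for both.

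*Pdgfra*, the PDGF receptor of oligodendrocyte precursors, had 24.7, 20.8, 20.1 and 23.6 scaled TPM on day 5 and 48.9, 51.8, 49.1 and 55.5 on day 7 (log2 fold change 1.20, SE 0.075, limma adjusted p = 1.72e-06). *Mbp*, the myelin basic protein, had 4.07, 4.06, 3.92 and 3.99 scaled TPM on day 5 and 23.1, 28.1, 12 and 32.3 on day 7 (log2 fold change 2.46, SE 0.26, limma adjusted p = 5.01e-05). The day 7 values of *Mbp* spread widely but none reached down to day 5. *Mag*, a myelin adhesion protein, went from 0.292 to 2.52 scaled TPM (log2 fold change 2.77). Of the lineage transcription factors, *Sox10* went from 3.03 to 8.30 scaled TPM (1.48), *Myrf*, the factor that starts myelin gene expression, from 0.450 to 2.66 (2.33), and *Olig2* had 59.4, 58.96, 57.4 and 76.02 scaled TPM on day 5 and 79.9, 83.1, 85.4 and 75.4 on day 7, where the lowest day 7 library lay below the highest of day 5 (log2 fold change 0.37, SE 0.088, limma adjusted p = 0.00636). The 2 members called lower were *Cnp*, 135 to 114 scaled TPM (log2 fold change −0.24), and *Cspg4*, the NG2 proteoglycan of precursors, 5.15 to 4.29 scaled TPM (log2 fold change −0.26, limma adjusted p = 0.0388), a call that was lost under 9 of 18 alternatives, among them leaving out replicates 1 or 2 of day 5 or 2, 3 or 4 of day 7. The late myelin genes *Mog* (0.372 to 0.464 scaled TPM) and *Mobp* (0.233 to 0.225) were not called.

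**Figure D4:**
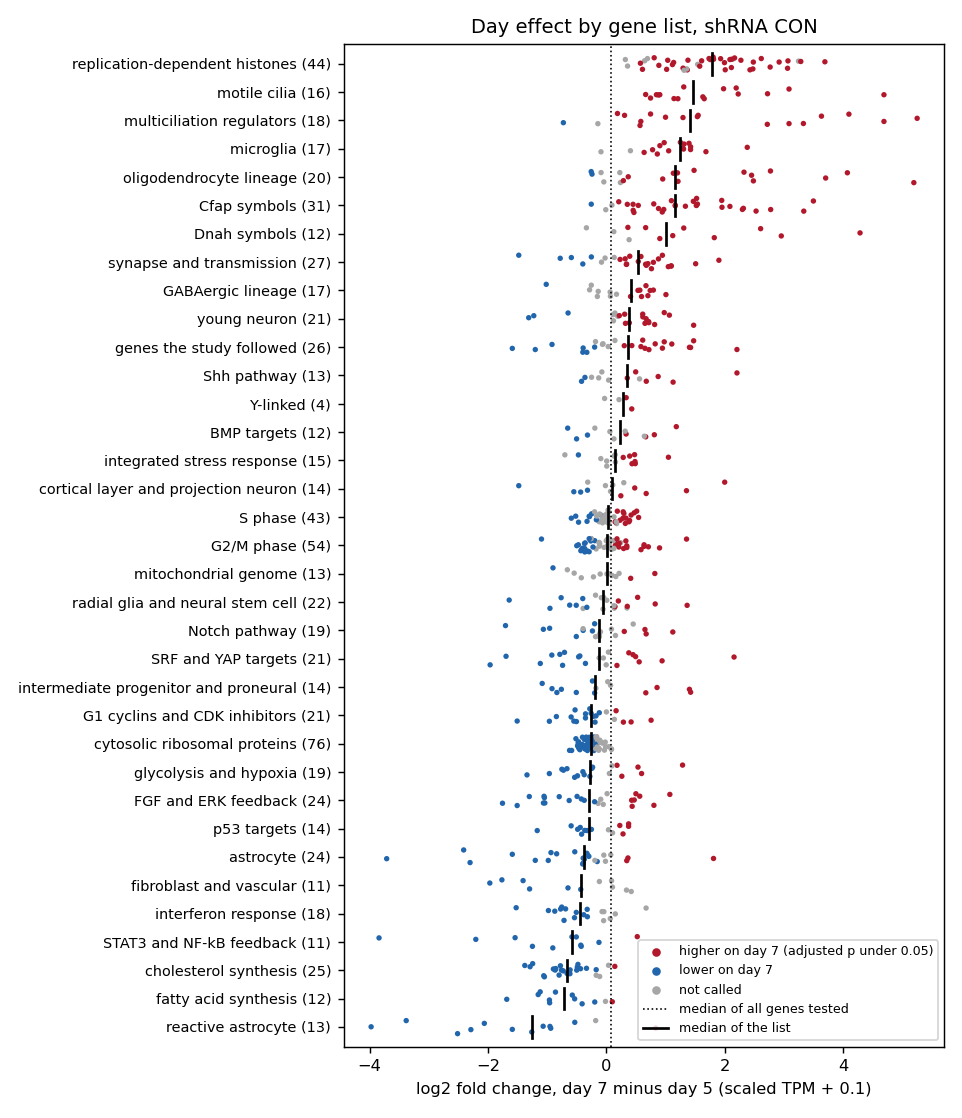
Log2 fold change, day 7 minus day 5 in shRNA CON, of each tested gene (points) by gene list, with the number of genes tested in brackets. Black bars are list medians and the dotted line is the median of all genes, 0.074; colours give the call of limma at an adjusted p under 0.05. Lists run from reactive astrocyte genes with a median of −1.26 at the bottom to replication-dependent histones with 1.78 at the top, both collected after the values were seen.

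Genes of young neurons and of synapses rose moderately. In the young neuron list 14 of 21 were higher, 3 lower and 4 not called (median 0.39), and in the synapse list 19 of 27 were higher, 5 lower and 3 not called (median 0.54). *Dcx*, a microtubule protein of migrating neurons, had 47.6, 32.1, 35.6 and 34.9 scaled TPM on day 5 and 95.4, 102, 99.8 and 118 on day 7 (log2 fold change 1.48, SE 0.12, limma adjusted p = 8.36e-06). *Map2*, of dendrites, had 186, 145, 158 and 151 scaled TPM on day 5 and 291, 318, 309 and 339.9 on day 7 (log2 fold change 0.98, SE 0.079, limma adjusted p = 8.86e-06), and *Tubb3*, the neuronal tubulin, had 169, 139, 149 and 179.9 scaled TPM on day 5 and 245, 233, 242 and 250.6 on day 7 (log2 fold change 0.62, SE 0.076, limma adjusted p = 1.34e-04). The libraries of the 2 days did not overlap in any of these. *Mapt*, the axonal protein tau, was not called (44.8 to 49.5 scaled TPM, log2 fold change 0.15, limma adjusted p = 0.0596), and 6 of 18 alternatives called it, leaving out replicate 1 of day 5 among them. The members that fell were *Gap43*, a growth cone protein (119.9 to 48.3 scaled TPM, −1.31), *Stmn2*, a microtubule destabiliser of axons (157 to 66.97, −1.23), and the neurofilament gene *Nefm* (1.89 to 1.18, −0.65).

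Among synaptic genes, *Syt1*, the calcium sensor of vesicle release, went from 3.40 to 6.33 scaled TPM (log2 fold change 0.88, SE 0.10, limma adjusted p = 9.01e-05) and *Snap25*, of the fusion machinery, from 10.3 to 18.1 (log2 fold change 0.80, SE 0.068, limma adjusted p = 1.30e-05). The receptor subunit genes *Grin3a* (3.47 to 6.78 scaled TPM, log2 fold change 0.95), *Gabrb1* (21.3 to 32.02, 0.59) and *Grin2b* (0.777 to 3.16, 1.90) rose as well. *Camk2a*, the calcium-dependent kinase of excitatory synapses, had 72.6, 58.3, 63.2 and 66.6 scaled TPM on day 5 and 48.6, 49.3, 51.8 and 47.6 on day 7 (log2 fold change −0.40, SE 0.065, limma adjusted p = 7.49e-04), and other members called lower included *Camk2b* (−0.25), *Sv2b* (−0.78) and the vesicular glutamate transporter *Slc17a7* (0.589 to 0.147 scaled TPM, −1.48). This transporter defines cortical excitatory neurons and was under 1 scaled TPM on both days.

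Several genes of the cortical excitatory lineage were under 1 scaled TPM: *Eomes*, of intermediate progenitors, had 0.573, 0.662, 0.549 and 0.385 scaled TPM on day 5 and 0.201, 0.244, 0.122 and 0.249 on day 7, and *Tbr1*, of their daughter neurons, had a mean of 0.124 on day 5 and 0.133 on day 7. *Neurod6* and *Neurod2* were below the filter, at 0.0522 and 0.0617 scaled TPM on day 7. *Eomes* fell (log2 fold change −1.08, limma adjusted p = 0.00462), while the proneural genes *Neurog2* (0.312 to 0.988 scaled TPM, log2 fold change 1.41, limma adjusted p = 2.06e-04) and *Neurod1* (0.162 to 0.605 scaled TPM, log2 fold change 1.43, limma adjusted p = 7.80e-04) rose but stayed near or below 1 scaled TPM. Of the 20 intermediate progenitor and proneural genes listed, 14 were tested, of which 4 were higher, 7 lower and 3 not called. In the cortical layer list 5 of 14 were higher, 4 lower and 5 not called, and its median, 0.091, turned negative with quantile normalization (−0.024). *Bcl11b*, of deep layers and of striatal neurons, went from 3.67 to 9.53 scaled TPM (log2 fold change 1.36, limma adjusted p = 5.17e-05), and *Foxp2*, shared by the same cell types, from 0.578 to 2.61 (log2 fold change 2.00, limma adjusted p = 1.72e-06). The other members that rose were *Fezf2*, of deep layers, 6.68 to 9.36 scaled TPM (log2 fold change 0.48, limma adjusted p = 0.00214), and the upper layer genes *Cux2*, 3.10 to 4.93 (log2 fold change 0.67, limma adjusted p = 0.00531), and *Cux1*, 52.8 to 62.7 (log2 fold change 0.25, limma adjusted p = 6.87e-04). The members called lower were *Slc17a7*, *Rorb* (−0.55), *Reln* (−0.43) and *Pou3f3* (−0.32).

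Genes of the GABAergic lineage rose or were not called, with 1 exception. Of 17 genes 9 were higher, 1 lower and 7 not called (median 0.41). *Gad1*, which makes the transmitter GABA, had 31.6, 24.9, 27.6 and 28.9 scaled TPM on day 5 and 43.7, 43.6, 44.2 and 48.3 on day 7 (log2 fold change 0.67, SE 0.072, limma adjusted p = 5.26e-05). *Dlx1*, a homeobox factor of this lineage, had 115, 94.3, 106 and 109 scaled TPM on day 5 and 137, 138, 149.6 and 138 on day 7 (log2 fold change 0.41, SE 0.061, limma adjusted p = 4.15e-04), and the libraries of the days did not overlap in either gene. *Gad2* went from 8.55 to 12.7 scaled TPM (log2 fold change 0.57, limma adjusted p = 7.19e-04), and *Dlx2*, which acts earlier, was not called (36.9 to 33.02 scaled TPM, limma adjusted p = 0.375). The member called lower was *Gsx2*, a factor of dividing ventral progenitors (4.34 to 2.10 scaled TPM, log2 fold change −1.02). The labels give the cortex as the source of these cells.

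NSC markers did not move as 1 group. Of 22 genes 6 were higher, 7 lower and 9 not called, shares of 27.3% and 31.8% against the background of 27.7% and 22.0%. The median, −0.049, turned positive with TPM as deposited (0.10) and with quantile normalization (0.024). *Sox2* had 149, 173, 169 and 196 scaled TPM on day 5 and 135, 158, 168 and 144 on day 7, and *Pax6* had a mean of 59.8 ± 1.62 on day 5 and 57.6 ± 3.34 on day 7. Neither was called (limma adjusted p = 0.132 and 0.365), though *Sox2* was called lower without replicate 1 of day 5, and both were above 40 scaled TPM in every library, so these defining markers of NSC were present on both days. *Nes*, the intermediate filament nestin, had 58, 63.8, 57.3 and 57.1 scaled TPM on day 5 and 99.5, 102, 111 and 107 on day 7 (log2 fold change 0.83, SE 0.051, limma adjusted p = 1.6e-06), and *Emx1*, of the dorsal cortex, had 2.22, 2.03, 2.75 and 3.33 scaled TPM on day 5 and 6.24, 6.89, 7.84 and 5.95 on day 7 (log2 fold change 1.37, SE 0.16, limma adjusted p = 8.28e-05). The largest decreases were in genes that radial glia share with astrocytes: *Fabp7*, the brain lipid-binding protein, had 3185, 4194, 3880 and 3564 scaled TPM on day 5 and 1178, 1232, 1128 and 1194 on day 7 (log2 fold change −1.64, SE 0.08, limma adjusted p = 4.19e-07), and *Vim*, the filament vimentin, had 8368, 9532, 9552 and 10180 scaled TPM on day 5 and 4883, 4819, 5047 and 4661 on day 7 (log2 fold change −0.95, SE 0.068, limma adjusted p = 4.13e-06).

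Most astrocyte genes fell. Of 24 genes 17 were lower, 3 higher and 4 not called (median −0.38). *Gfap*, the intermediate filament of astrocytes, had 1844, 1840, 1882 and 2007 scaled TPM on day 5 and 638, 634, 638 and 608 on day 7 (log2 fold change −1.59, SE 0.042, limma adjusted p = 1.70e-08). *Glul*, the enzyme that makes glutamine, had 766, 819.9, 854 and 738 scaled TPM on day 5 and 339.8, 336, 344 and 362 on day 7 (log2 fold change −1.20, SE 0.052, limma adjusted p = 2.03e-07). *Aldh1l1*, a folate enzyme used as a pan-astrocyte marker, had 289, 314, 324 and 316 scaled TPM on day 5 and 63.96, 62.6, 64.96 and 60.1 on day 7 (log2 fold change −2.30, SE 0.044, limma adjusted p = 5.32e-09). Each of these was at least 2-fold lower in every library of day 7 than in any of day 5. *Atp1b2*, a sodium pump subunit, fell from 1248 to 235 scaled TPM (−2.41) and *Gjb6*, the gap junction protein connexin 30, from 7.15 to 0.466 (−3.71). The glutamate transporters changed less, *Slc1a2* from 88.2 to 66.7 scaled TPM (log2 fold change −0.40, limma adjusted p = 0.00165) and *Slc1a3* from 914 to 728 (log2 fold change −0.33, limma adjusted p = 2.60e-04), and the call of *Slc1a3* was lost with quantile normalization. *Aqp4*, the water channel, went from 361 to 324 scaled TPM with overlapping libraries (log2 fold change −0.15, limma adjusted p = 0.0297), a call lost under 11 of 18 alternatives, with leaving out replicates 1 or 3 of day 5 or 1, 2 or 3 of day 7 among them. The members that rose were *S100b*, a calcium-binding protein shared with the oligodendrocyte lineage, with 4.18, 5.01, 5.42 and 4.16 scaled TPM on day 5 and 18.02, 16.9, 15.6 and 16.1 on day 7 (log2 fold change 1.81, SE 0.097, limma adjusted p = 6.87e-07), the apolipoprotein *Apoe* (7821 to 9992 scaled TPM, log2 fold change 0.37, limma adjusted p = 0.0165) and the protease inhibitor *Cst3* (5041 to 6348, log2 fold change 0.35, limma adjusted p = 0.0455), whose libraries overlapped between days.

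Of 13 genes that mark reactive astrocytes 11 were lower, 1 higher and 1 not called, with a median of −1.26. The list was drawn up after the values were seen. It includes *Lcn2* and *Timp1*, named by rule for their decrease, so its median is a description. *Lcn2*, the iron-carrier lipocalin 2, had 94.7, 83.4, 84.01 and 98.9 scaled TPM on day 5 and 6.08, 5.39, 4.99 and 6.16 on day 7 (log2 fold change −3.97, SE 0.084, limma adjusted p = 8.88e-09). *Serpina3n*, a serpin, had 813, 761.5, 813 and 777 scaled TPM on day 5 and 146, 129, 131 and 150.1 on day 7 (log2 fold change −2.51, SE 0.056, limma adjusted p = 9.59e-09). *Timp1*, an inhibitor of metalloproteases, had 49.03, 55.2, 52.7 and 53.3 scaled TPM on day 5 and 3.68, 5.75, 5.37 and 5.28 on day 7 (log2 fold change −3.38, SE 0.12, limma adjusted p = 8.70e-08). On average these were 15.96, 5.70 and 10.5-fold lower on day 7. The member called higher was *Cxcl10*, a chemokine with overlapping libraries (9.93, 20.1, 7.13 and 12.4 on day 5 and 26.96, 19.7, 16.6 and 20.7 on day 7, limma adjusted p = 0.0337), and *Steap4* was not called.

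Genes that STAT3 and NF-κB are known to induce moved the same way. Of 11 such genes, also listed after the values were seen, 10 were lower and 1 higher. *Socs3*, the feedback inhibitor of STAT3, had 44.8, 42.9, 47.9 and 49.4 scaled TPM on day 5 and 10.02, 9.54, 11.3 and 9.04 on day 7 (log2 fold change −2.21, SE 0.075, limma adjusted p = 5.77e-08). *Bcl3*, an atypical IκB protein, had 14.7, 13.9, 12.2 and 14.98 scaled TPM on day 5 and 0.583, 0.648, 1.58 and 0.968 on day 7 (log2 fold change −3.84, SE 0.25, limma adjusted p = 2.60e-06). *Stat3* itself changed less, 128 to 95.4 scaled TPM (log2 fold change −0.42, limma adjusted p = 2.01e-04). The decrease of *Cebpd* (19.1, 27.9, 33.1 and 54 scaled TPM on day 5 and 9.80, 12.1, 13.1 and 8.39 on day 7, log2 fold change −1.54, SE 0.28, limma adjusted p = 0.00144) came with a wide spread on day 5, where replicate 4 was highest. *Tnfaip3*, an NF-κB inhibitor, was the member called higher (1.36 to 1.99 scaled TPM, log2 fold change 0.52). In bulk RNA, fewer cells of a type and less RNA per cell cannot be told apart, for these as for the other lists.

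**Figure D5:**
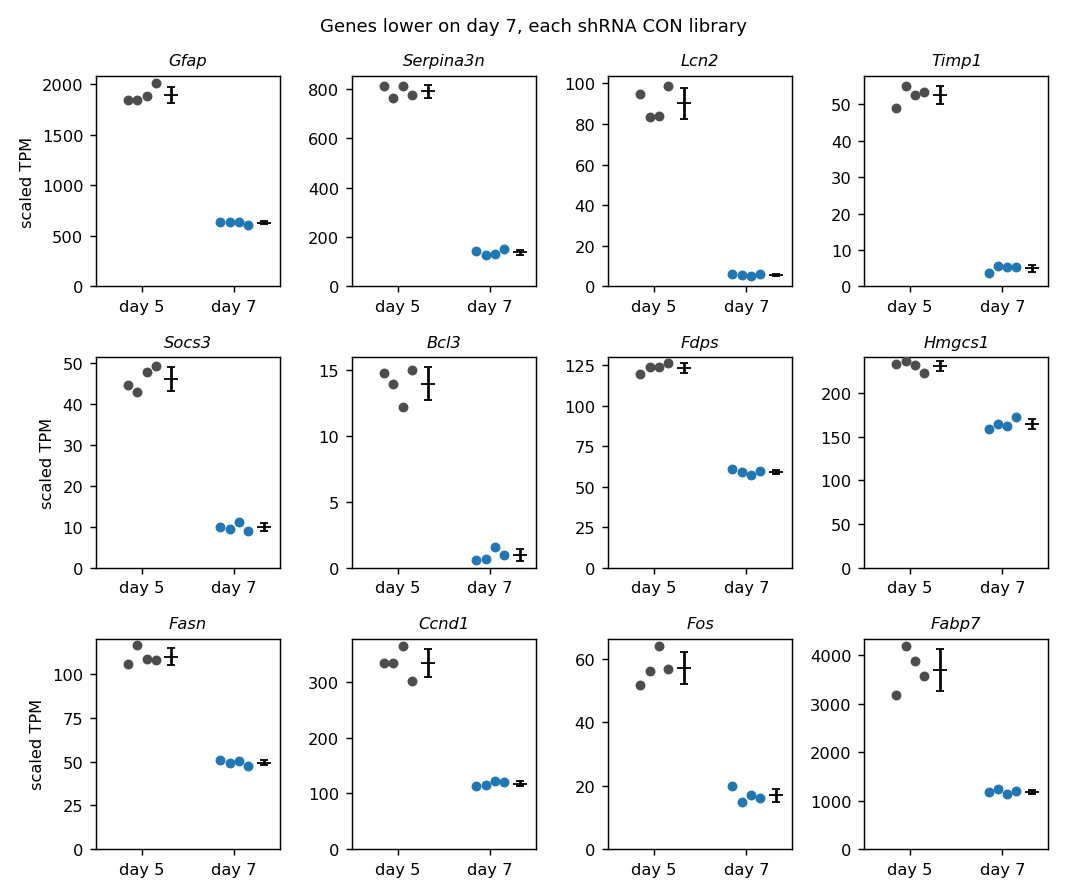
Scaled TPM of 12 genes in each shRNA CON library (points, replicates 1 to 4 from left to right within a day), with mean and SD of the 4 libraries (bars) on linear axes that start at 0. In every panel the 4 libraries of day 7 lie below the 4 of day 5, by the largest factor, 16.0-fold on average, for *Lcn2*.

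Cell cycle genes did not fall as a group after FGF2 withdrawal. Of 43 S phase genes 14 were higher, 9 lower and 20 not called, and of 54 G2/M genes 15 were higher, 18 lower and 21 not called. The medians were 0.021 and 0.017, below that of all genes (0.074), and that of the G2/M list was negative under 4 of 18 alternatives, quantile normalization among them. *Mki67*, the proliferation antigen, had 44.9, 42.3, 43.2 and 38.4 scaled TPM on day 5 and 41.96, 41.6, 42.3 and 46.7 on day 7 (log2 fold change 0.032, SE 0.058, limma adjusted p = 0.678). *Top2a*, the topoisomerase of mitotic chromosomes, had 171, 177, 174 and 165 scaled TPM on day 5 and 163, 172, 175 and 188 on day 7 (log2 fold change 0.021, SE 0.047, limma adjusted p = 0.735). In both genes the libraries of the days overlapped. *Pcna* (219 to 209 scaled TPM, limma adjusted p = 0.165) and *Mcm2* (37.4 to 37.01, 0.803), of the replication machinery, were not called. With TPM as deposited and with quantile normalization *Pcna* and *Top2a* were called higher, and with TPM as deposited *Mki67* was too. *Mcm6*, of the same helicase as *Mcm2*, was called lower (61.8 to 57.2 scaled TPM, log2 fold change −0.11, limma adjusted p = 0.038), a call lost under 11 of 18 alternatives, leaving out replicate 2, 3 or 4 of either day among them, and positive with TPM as deposited.

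Members that moved lay on both sides. *Rrm2*, which makes deoxynucleotides, had 149, 152, 166 and 144 scaled TPM on day 5 and 115, 104, 108 and 115 on day 7 (log2 fold change −0.47, SE 0.053, limma adjusted p = 8.03e-05), and *Ccnb2*, a mitotic cyclin, had 39.7, 45.4, 46.4 and 46.3 scaled TPM on day 5 and 32.9, 31.1, 31.2 and 32.7 on day 7 (log2 fold change −0.47, SE 0.056, limma adjusted p = 1.05e-04). *Cdk1*, the kinase it activates, was called higher (130.1 to 144 scaled TPM, log2 fold change 0.15, limma adjusted p = 0.0182) but not without the eBayes trend or in a fit over 16 libraries. The largest increase in the G2/M list was that of *Tubb4b* and the largest decrease that of *Psrc1*, a spindle protein (134 to 62.6 scaled TPM, −1.10). *Plk4*, *Stil* (6.48 to 19.1 scaled TPM) and *Cep152* (3.30 to 8.25), which duplicate centrioles in cycling cells too, belong to the multiciliation list above. Histone genes that are transcribed in S phase and whose mRNA normally ends without a polyA tail were higher in 35 of 44 tested and lower in 0 (median 1.78, families collected after the values were seen). They share near-identical sequences, so the split among them is uncertain, and their level in polyA libraries also holds untailed RNA that was carried along, whose part was not tested. *Slbp*, which binds the end of these mRNAs, went from 51.2 to 70.99 scaled TPM (log2 fold change 0.47).

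The promoter of *Top2a* is shown as a cell cycle promoter whose gene was not called with the scaling used here. It lies at chr11:99024140-99024439 on the minus strand (RefSeq, GRCm38.p6), and capitals mark TTTGAA, the CHR element of late cell cycle genes, and CCAAT, bound by NF-Y, on both strands (TTCAAA and ATTGG are the same motifs read on the other strand).
Top2a: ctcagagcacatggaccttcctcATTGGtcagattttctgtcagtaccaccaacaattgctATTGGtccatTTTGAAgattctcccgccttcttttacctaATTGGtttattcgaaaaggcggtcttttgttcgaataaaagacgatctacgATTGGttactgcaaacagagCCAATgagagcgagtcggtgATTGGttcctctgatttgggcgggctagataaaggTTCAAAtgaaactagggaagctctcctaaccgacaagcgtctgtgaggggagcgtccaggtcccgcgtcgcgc
It holds TTTGAA at 2 places, −179 and −23, and CCAAT at 6. Of all promoters 17.9% hold TTTGAA and 37.4% hold CCAAT.

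In contrast to the replication and mitosis genes, those that control entry into the cycle were mostly lower. Of 21 G1 cyclins, kinases and inhibitors 15 were lower, 4 higher and 2 not called (median −0.26). *Ccnd1*, the cyclin that growth factors induce, had 335, 334, 366 and 302 scaled TPM on day 5 and 113, 116, 122 and 119.5 on day 7 (log2 fold change −1.51, SE 0.057, limma adjusted p = 9.40e-08). *Ccnd2*, its relative, had 306, 268, 287 and 238 scaled TPM on day 5 and 259, 274, 276 and 288 on day 7 (log2 fold change 0.0021, SE 0.074, limma adjusted p = 0.986). The first was 2.85-fold lower with no overlap, and the days overlapped fully in the second. The CDK inhibitors fell too: *Cdkn1a* (p21) had 278, 266, 275 and 293 scaled TPM on day 5 and 183, 184, 198 and 171 on day 7 (log2 fold change −0.59, SE 0.05, limma adjusted p = 1.16e-05), and *Cdkn1c* (p57) had 12.1, 13.5, 14.3 and 22.8 scaled TPM on day 5 and 8.12, 7.98, 8.06 and 6.95 on day 7 (log2 fold change −0.96, SE 0.17, limma adjusted p = 0.0014), with replicate 4 of day 5 above the rest. The members that rose were *Cdk6* (15.8 to 26.6 scaled TPM, 0.76), *Ccne2* (0.42), *Rbl1* (0.29) and *Rbl2* (0.17).

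Targets of FGF signalling, whose ligand FGF2 is not listed for the new medium, were lower in 13 of 24, higher in 7 and not called in 4 (median −0.29). *Fos*, an immediate early gene of ERK, had 51.9, 56.1, 63.9 and 56.8 scaled TPM on day 5 and 19.8, 14.9, 16.9 and 16.1 on day 7 (log2 fold change −1.75, SE 0.091, limma adjusted p = 6.07e-07). *Egr1*, another, had 31.5, 26.7, 31.9 and 30.04 scaled TPM on day 5 and 15.9, 14.3, 14.99 and 12.6 on day 7 (log2 fold change −1.05, SE 0.083, limma adjusted p = 7.75e-06). The feedback inhibitor *Spry4* had 5.46, 4.84, 5.43 and 4.21 scaled TPM on day 5 and 2.35, 2.13, 2.50 and 2.33 on day 7 (log2 fold change −1.06, SE 0.10, limma adjusted p = 3.15e-05). None of the 3 overlapped between days. The ETS factors *Etv4* (10.2 to 4.83 scaled TPM, log2 fold change −1.05, limma adjusted p = 5.66e-05) and *Etv5* (18.1 to 13.9, log2 fold change −0.37, limma adjusted p = 9.14e-04) and the ERK phosphatase *Dusp6* (33.9 to 25.2, log2 fold change −0.42, limma adjusted p = 0.00102) fell with smaller fold changes than *Fos*. In the other direction, *Etv1*, of the same ETS subfamily, rose from 15.2 to 31.9 scaled TPM (log2 fold change 1.07), *Dusp4* from 17.6 to 26.1 (0.57) and *Myc* from 15.03 to 20.2 (0.43).

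Targets of SRF and YAP, which respond to serum and to cell tension, were split, with 10 of 21 lower, 7 higher and 4 not called, and their median, −0.12, turned positive with TPM as deposited (0.032). *Acta2* and *Tagln*, of smooth muscle type stress fibres, went from 335 to 201 and 381 to 220.2 scaled TPM (log2 fold changes −0.74 and −0.79), and the calponin gene *Cnn1* fell from 63.03 to 19.4 (−1.69). *Ccn2*, a matrix protein and YAP target, had 51.8, 59.5, 58.7 and 61.4 scaled TPM on day 5 and 258, 276, 263 and 237 on day 7 (log2 fold change 2.16, SE 0.064, limma adjusted p = 3.26e-08). Its relative *Ccn1* had 316, 334, 363 and 351 scaled TPM on day 5 and 255, 239, 258 and 234 on day 7 (log2 fold change −0.47, SE 0.053, limma adjusted p = 7.77e-05). The pair thus moved in opposite directions with no overlap in either gene.

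Lipid synthesis was the metabolic group with the clearest decrease. Of 25 genes of cholesterol synthesis and its regulation 21 were lower, 1 higher and 3 not called (84.0% lower, background 22.0%, median −0.66), and of 12 of fatty acid synthesis 10 were lower, 1 higher and 1 not called (median −0.72). *Hmgcs1*, an early enzyme of the pathway, had 233, 237, 232 and 224 scaled TPM on day 5 and 159.6, 165, 162 and 173 on day 7 (log2 fold change −0.49, SE 0.037, limma adjusted p = 5.84e-06). *Fdps*, which makes farnesyl diphosphate, had 119, 124, 124 and 126 scaled TPM on day 5 and 60.6, 58.9, 57.4 and 59.8 on day 7 (log2 fold change −1.06, SE 0.034, limma adjusted p = 4.60e-08). The libraries of a day differed by little in these genes, and the days were separate in each. The member that rose was *Sqle*, squalene epoxidase (75.5, 81.8, 82.9 and 82.5 scaled TPM on day 5 and 88.3, 90.3, 90.2 and 87.7 on day 7, log2 fold change 0.14, SE 0.039, limma adjusted p = 0.0124).

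*Fasn*, fatty acid synthase, had 106, 117, 109 and 108 scaled TPM on day 5 and 50.9, 49.1, 50.3 and 47.8 on day 7 (log2 fold change −1.15, SE 0.041, limma adjusted p = 7.44e-08). The desaturases *Scd1* and *Scd2* went from 94.4 to 29.4 and 1370 to 1032 scaled TPM (log2 fold changes −1.68 and −0.41), and the call of *Scd2* was lost with quantile normalization. *Srebf1*, the transcription factor of this pathway, fell from 126 to 86.6 scaled TPM (log2 fold change −0.53, limma adjusted p = 4.57e-05) and *Srebf2*, that of the cholesterol pathway, from 103 to 72.96 (log2 fold change −0.50, limma adjusted p = 7.98e-04). The fatty acid gene called higher was the desaturase *Fads2* (383 to 410.5 scaled TPM, log2 fold change 0.10, limma adjusted p = 0.0331).

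The promoter of *Hmgcs1* is shown as that of a cholesterol gene. It lies at chr13:119690101-119690400 on the plus strand (RefSeq, GRCm38.p6). Capitals mark CACCCCAC, a core of the sterol regulatory element that SREBP factors bind, and CCAAT, read as ATTGG on the other strand.
Hmgcs1: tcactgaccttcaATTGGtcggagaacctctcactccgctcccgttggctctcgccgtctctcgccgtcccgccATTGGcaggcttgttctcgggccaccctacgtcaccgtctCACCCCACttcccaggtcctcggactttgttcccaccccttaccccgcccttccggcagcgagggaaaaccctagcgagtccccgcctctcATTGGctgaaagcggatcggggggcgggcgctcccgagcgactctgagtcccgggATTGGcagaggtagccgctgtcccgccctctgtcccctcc
CACCCCAC stands at −136 and is held by 2.87% of all promoters, and CCAAT stands at 4 places. *Cyp51* (48.6 to 34.9 scaled TPM, −0.48), *Msmo1* (120.1 to 78.7, −0.61), *Mvd* (26.1 to 10.98, −1.24) and *Dhcr7* (38.8 to 20.8, −0.89), later enzymes of the pathway, fell with *Hmgcs1*.

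Among the Shh, Notch and BMP lists, the largest change was that of the Shh ligand. *Shh*, which patterns the ventral neural tube, had 1.64, 1.60, 1.79 and 1.87 scaled TPM on day 5 and 7.69, 9.45, 8.52 and 7.72 on day 7 (log2 fold change 2.21, SE 0.095, limma adjusted p = 2.07e-07). Its receptor and target *Ptch1* had 30.4, 25.5, 25.2 and 24.1 scaled TPM on day 5 and 48.4, 49.8, 48.3 and 46.2 on day 7 (log2 fold change 0.88, SE 0.07, limma adjusted p = 8.51e-06). *Gli1*, the target most often used to read the pathway, had 1.52, 1.07, 1.38 and 1.03 scaled TPM on day 5 and 1.72, 1.93, 1.82 and 1.68 on day 7 (log2 fold change 0.50, SE 0.15, limma adjusted p = 0.0187), and this call was lost without replicate 2 of either day and with quantile normalization. Of 13 genes 6 were higher, 2 lower (*Gli2*, −0.42, and *Boc*, −0.36) and 5 not called. *Shh* overlaps a transcript on the other strand, *9530036O11Rik*.

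In the Notch list 4 of 19 genes were higher, 7 lower and 8 not called, and the median, −0.12, turned positive with TPM as deposited (0.034). *Notch1* had 56.6, 43.7, 48.7 and 47.1 scaled TPM on day 5 and 35.4, 36.1, 39.8 and 37.6 on day 7 (log2 fold change −0.39, SE 0.076, limma adjusted p = 0.0022), a call lost with TPM as deposited, and *Notch2* had 32.98, 29.3, 29.99 and 28.8 scaled TPM on day 5 and 37.3, 37.3, 39.3 and 35.5 on day 7 (log2 fold change 0.30, SE 0.053, limma adjusted p = 0.00116). The target *Hes1* had 14.01, 16.03, 15.3 and 21.2 scaled TPM on day 5 and 23.4, 26.5, 28.8 and 25.2 on day 7 (log2 fold change 0.65, SE 0.12, limma adjusted p = 0.00166), while *Hes5* was not called (9.97 to 7.56 scaled TPM, limma adjusted p = 0.0508) but was called lower under 5 of 18 alternatives, leaving out replicate 1 or 2 of day 5 among them. The 2 receptors thus changed in opposite directions. The ligand *Dll1* was called lower (19.9 to 17.3 scaled TPM, log2 fold change −0.20, limma adjusted p = 0.0247), but not under 7 of 18 alternatives, among them leaving out replicate 2 of day 5 or 1 or 2 of day 7. Ligands *Jag2* (3.86 to 8.41 scaled TPM, 1.12) and *Dll4* (2.03 to 0.563, −1.70) and the receptor *Notch3* (19.3 to 9.19, −1.06) moved further. Besides *Notch2* and *Hes1*, *Jag2* and *Hey1* (0.67) were the members that rose.

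Of 12 BMP targets 4 were higher, 3 lower and 5 not called. *Id1*, an inhibitor of differentiation, had 85.3, 119, 127 and 160.0 scaled TPM on day 5 and 83.3, 89.03, 92.8 and 74.2 on day 7 (log2 fold change −0.50, SE 0.17, limma adjusted p = 0.0304), with overlap, and lost its call under 10 of 18 alternatives, among them leaving out any of replicates 2, 3 and 4 of day 5 or 1, 2 and 4 of day 7. *Id3* was not called (247 to 215 scaled TPM, limma adjusted p = 0.128) except as lower without replicate 1 of day 5, and *Smad6*, the feedback inhibitor, went from 2.66 to 4.29 scaled TPM with overlap (log2 fold change 0.67, limma adjusted p = 0.00904). The other members called lower were *Id2* (−0.32) and *Atoh8* (−0.65), and the others called higher *Msx1* (1.18), *Smad7* (0.81) and *Bambi* (0.33).

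Most glycolysis genes fell, while genes of the integrated stress response rose or were not called, with 1 exception. Of 19 glycolysis and hypoxia genes 12 were lower, 5 higher and 2 not called (median −0.28): *Ldha*, lactate dehydrogenase, had 333, 365, 363 and 361 scaled TPM on day 5 and 258, 242, 241 and 242 on day 7 (log2 fold change −0.53, SE 0.042, limma adjusted p = 7.36e-06), and *Vegfa*, the angiogenic factor, went from 36.8 to 26.2 scaled TPM (log2 fold change −0.49, limma adjusted p = 6.43e-05). *Pdk1*, which keeps pyruvate out of the mitochondrion, had 18.3, 16.9, 15.9 and 18.2 scaled TPM on day 5 and 26.1, 24.6, 27.7 and 26.4 on day 7 (log2 fold change 0.60, SE 0.059, limma adjusted p = 3.22e-05), and the other members that rose were *Ankrd37* (1.29), *Slc2a1* (0.54), *Egln3* (0.26) and *Pfkl* (0.18). Of 15 genes of the integrated stress response 7 were higher, 1 lower (*Shmt2*, −0.47) and 7 not called: *Trib3*, a pseudokinase that ATF4 induces, went from 1.01 to 2.19 scaled TPM (log2 fold change 1.05, limma adjusted p = 1.96e-04) and *Asns*, asparagine synthetase, from 23.5 to 31.01 (log2 fold change 0.40, limma adjusted p = 3.78e-04). *Ddit3* stands on more than 1 line of the tables and was not counted.

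Of 14 p53 targets 8 were lower and 4 higher. *Mdm2*, which degrades p53, had 77.6, 71.03, 71.6 and 72.05 scaled TPM on day 5 and 90.5, 88.2, 87.8 and 88.9 on day 7 (log2 fold change 0.28, SE 0.038, limma adjusted p = 2.16e-04), and *Bbc3*, the killer protein Puma, was not called (18.9 to 19.2 scaled TPM, limma adjusted p = 0.878). *Cdkn1a*, given above, was among those that fell, and the other members that rose were *Trp53inp1* (0.38), *Pmaip1* (0.38) and *Eda2r* (log2 fold change 0.23, limma adjusted p = 0.0375, with overlapping libraries). Of 18 interferon response genes 12 were lower, 0 higher and 6 not called (median −0.44). *Ifit3* had 98.2, 118, 87.7 and 97.6 scaled TPM on day 5 and 50.8, 47.2, 51.9 and 52.5 on day 7 (log2 fold change −0.98, SE 0.081, limma adjusted p = 1.10e-05). *Isg15* was not called (limma adjusted p = 0.744). The largest decrease was that of the antigen-presenting MHC gene *H2-K1*, with 541, 432, 438 and 542 scaled TPM on day 5 and 179, 166, 161 and 171 on day 7 (log2 fold change −1.52, SE 0.084, limma adjusted p = 8.12e-07), whose reads may be split with related MHC genes, and its light chain *B2m* went from 823 to 449.8 scaled TPM (−0.87).

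Markers of cells that a cortical dissection can carry along were examined beside these lists. Microglia genes rose in 15 of 17 and fell in 0 (median 1.25), and their summed level was 366 to 395 scaled TPM in the libraries of day 5 and 819 to 890 on day 7. *Cx3cr1*, the fractalkine receptor, had 8.48, 6.96, 7.12 and 6.63 scaled TPM on day 5 and 22.8, 21.9, 23.8 and 26.02 on day 7 (log2 fold change 1.68, SE 0.086, limma adjusted p = 5.27e-07). *C1qa*, of complement, had 49.4, 49.5, 50.4 and 57.5 scaled TPM on day 5 and 135, 129, 127 and 120.5 on day 7 (log2 fold change 1.31, SE 0.057, limma adjusted p = 2.23e-07). *Trem2*, a lipid receptor, had 4.28, 4.66, 5.38 and 6.203 scaled TPM on day 5 and 27.8, 27.2, 25.8 and 26.7 on day 7 (log2 fold change 2.38, SE 0.10, limma adjusted p = 2.22e-07). In each the days were apart by more than the range within a day. *Csf1r*, the receptor for the survival factor of microglia, went from 9.24 to 22.1 scaled TPM (log2 fold change 1.25, limma adjusted p = 1.14e-07) and *Cd68*, a lysosomal protein, from 19.7 to 52.01 (log2 fold change 1.40, limma adjusted p = 1.89e-07). The markers of the resting state in brain, *P2ry12* (2.39, 2.97, 3.12 and 1.79 scaled TPM on day 5 and 3.24, 4.06, 2.72 and 3.57 on day 7, log2 fold change 0.41, SE 0.19, limma adjusted p = 0.101) and *Tmem119* (4.02 to 3.80 scaled TPM, limma adjusted p = 0.617), were not called, though *P2ry12* was called higher with TPM as deposited. The part of these cells in changes of other genes was not tested.

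Fibroblast and vascular markers were low: of 14, 11 were tested, 6 were lower and 0 higher. *Col1a1*, a collagen chain, went from 2.66 to 0.729 scaled TPM (log2 fold change −1.76, limma adjusted p = 5.90e-04), while *Dcn* (0.398 scaled TPM on day 7) and *Pecam1* (0.242) were near 0 and *Cldn5* was listed at 0 in all 4 libraries of day 7. Of the 13 mRNAs of the mitochondrial genome 2 were higher, 1 lower and 10 not called, with a median of 0.011 that turned negative under 3 of 18 alternatives. *mt-Nd4l* (0.82) and *mt-Nd5* (0.41) were called higher and *mt-Nd3* lower (−0.90), and *mt-Co1* (20400 to 18990 scaled TPM, limma adjusted p = 0.277) and *mt-Cytb* (10280 to 11000, 0.241) were not called, though *mt-Cytb* was called higher with TPM as deposited and with quantile normalization. Cytosolic ribosomal protein genes were lower in 51 of 76 and higher in 0, by a median of −0.26. With quantile normalization that median was −0.0005, and the call of *Rplp0* (1110 to 932 scaled TPM, log2 fold change −0.25, limma adjusted p = 0.00118) was lost both there and with TPM as deposited. Their share of all TPM was 6.34% ± 0.353 on day 5 and 5.90% ± 0.293 on day 7 (exact permutation test, two-sided, p = 0.114, adjusted over 7 measures 0.114).

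Embryos of both sexes were pooled, and Y-linked genes and *Xist* were examined for the mix. Of 4 Y-linked genes 2 were higher on day 7 and 0 lower, *Ddx3y* going from 9.95 to 12.6 scaled TPM (log2 fold change 0.34, limma adjusted p = 0.00891), a call lost in a fit over 16 libraries, and their sum was 62.8 ± 2.79 scaled TPM on day 5 and 68.0 ± 4.82 on day 7 (exact permutation test, n = 4 each, p = 0.114). *Xist*, which is made from an inactive X chromosome, was at 103 ± 9.82 and 169 ± 17.4 scaled TPM (exact p = 0.0286, adjusted over 7 measures 0.0667). Both levels were higher on average on day 7, so no direction of the mix is read from them. The number of genes with a TPM above 0 was 27190 ± 365 on day 5 and 28586 ± 343 on day 7 (the same exact p).

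Beyond the lists, the rule for named genes took 12 genes in each direction by size of change, out of 7221 that were called, averaged 5 TPM or more, did not overlap between days and were above 0 in every library. Upward these were, besides *Cdc20b*, *Gpr17*, *Mcidas* and *Deup1*, the genes *Slc17a8*, *Crocc2*, *Tmem212*, *1700012B09Rik*, *Ucma*, *Nme9*, *Crip3* and *Gm867*, with log2 fold changes from 3.76 (*Gm867*, 2.21 to 30.99 scaled TPM) to 5.02 (*Slc17a8*). *Slc17a8*, the vesicular glutamate transporter VGLUT3, had 0.301, 0.271, 0.338 and 0.171 scaled TPM on day 5 and 10.6, 11.1, 12.9 and 12.5 on day 7 (log2 fold change 5.02, SE 0.16, limma adjusted p = 4.22e-08). *Crocc2*, related to the rootlet protein of cilia, had 0.502, 0.293, 0.359 and 0.428 scaled TPM on day 5 and 13.5, 11.5, 13.1 and 10.9 on day 7 (log2 fold change 4.65, SE 0.15, limma adjusted p = 4.18e-08). *Ucma*, best known from cartilage, had 0.683, 0.651, 0.655 and 0.781 scaled TPM on day 5 and 12.3, 14.1, 13.3 and 13.6 on day 7 (log2 fold change 4.08, SE 0.089, limma adjusted p = 9.59e-09). These 3 were under 1 scaled TPM in every day 5 library and above 10 in every day 7 library. *Nme9*, of the family of thioredoxin-like ciliary proteins, went from 0.661 to 12.7 scaled TPM (4.08).

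Downward they included, besides *Lcn2*, *Bcl3* and *Timp1*, the genes *Tgm1*, *C1qtnf1*, *Dhrs1*, *Slc14a1*, *Gm29394*, *Gm44709*, *Lpo* and *Igfbp2*. *Tgm1*, a transglutaminase best known from skin, had 35.7, 36.8, 35.6 and 37.99 scaled TPM on day 5 and 1.59, 1.67, 1.54 and 1.49 on day 7 (log2 fold change −4.46, SE 0.059, limma adjusted p = 6.95e-10), 23.3-fold lower on average. *Igfbp2*, which binds insulin-like growth factors, had 3103, 3599, 3524 and 3637 scaled TPM on day 5 and 612, 575, 595 and 550.0 on day 7 (log2 fold change −2.57, SE 0.06, limma adjusted p = 1.13e-08). *Dhrs1*, a short-chain dehydrogenase, had 3603, 3942, 3864 and 3987 scaled TPM on day 5 and 559, 518, 534 and 552 on day 7 (log2 fold change −2.83, SE 0.046, limma adjusted p = 1.77e-09). In all 3 the days were far apart, and the last 2 were among the abundant mRNAs of day 5. *Slc14a1*, a urea transporter, went from 23.1 to 3.17 scaled TPM (log2 fold change −2.83), *C1qtnf1* from 32.7 to 4.26 (−2.91) and *Lpo*, lactoperoxidase, from 9.41 to 1.51 (−2.58). The uncharacterised *Gm29394* (−2.68) and *Gm44709* (−2.64) overlap other genes.

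The lncRNA that the study targets in its other cultures, *RUS*, is listed as *Gm20754* and lies upstream of *Slitrk3*. In the control cultures *Gm20754* had 0.241, 0.119, 0.190 and 0.171 scaled TPM on day 5 and 0.669, 0.676, 0.244 and 0.517 on day 7 (log2 fold change 1.11, SE 0.31, limma adjusted p = 0.0141), with replicate 3 of day 7 barely above the highest of day 5, and the call was lost in a fit over 16 libraries. *Slitrk3*, a neuronal transmembrane protein, had 5.00, 3.96, 3.82 and 3.59 scaled TPM on day 5 and 6.09, 6.95, 5.83 and 8.45 on day 7 (log2 fold change 0.72, SE 0.14, limma adjusted p = 0.00203). *Rest*, the repressor of neuronal genes, had 6.34, 5.82, 5.83 and 5.81 scaled TPM on day 5 and 7.63, 7.96, 8.47 and 8.17 on day 7 (log2 fold change 0.43, SE 0.062, limma adjusted p = 3.34e-04). *Gm20754* was thus under 1 scaled TPM in every control library. Of 26 genes that the study followed over these days, which include markers given above and were in part chosen on these libraries, 14 were higher, 7 lower and 5 not called, so this count is not independent evidence of a direction.

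Whether the change over the 2 days was particular to the control cultures was tested as an interaction over all 16 libraries, the day effect in shRNA RUS minus that in shRNA CON. It was called for 3626 of 23789 genes (15.2%) as higher in shRNA RUS and 3464 (14.6%) as lower, so 51.1% of the calls were higher, and 73.5% were with TPM as deposited. Both contrasts share the control libraries, and levels in this and the next paragraph are scaled over the 16 libraries. Of the 54 G2/M genes 27 were lower in shRNA RUS and 3 higher. *Cdk1* went from 67.5 to 42.7 scaled TPM in shRNA RUS against 127 to 141 in shRNA CON (difference of log2 fold changes −0.82, limma adjusted p = 7.79e-05), and *Ccnb2* from 24.7 to 8.62 against 43.4 to 31.2 (difference −1.05, limma adjusted p = 3.42e-05). Ribosomal protein genes were lower in shRNA RUS in 75 of 76, and in 28 with quantile normalization (median difference −0.55 and −0.16). Microglia genes were lower there in 16 of 17 (median difference −0.98).

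Motile cilia genes were lower in shRNA RUS in 9 of 16 and higher in 0, and with TPM as deposited lower in 4 (median difference −0.44 and −0.28). *Foxj1* went from 188 to 215 scaled TPM there against 198 to 332 in shRNA CON (difference −0.55, limma adjusted p = 0.0233) and *Rsph1* from 42.8 to 71.2 against 49.9 to 157 (difference −0.93, limma adjusted p = 9.80e-06). *Mcidas* went from 0.579 to 12.8 scaled TPM in shRNA RUS and 0.916 to 25.7 in shRNA CON (difference −0.45), and *Myb* from 1.97 to 26.8 against 5.87 to 73.2 (difference 0.065). These 2 genes were named for their values in the control libraries, so their differences are a description. Of the lists made after the values were seen, multiciliation regulators were lower in shRNA RUS in 4 of 18 and higher in 1. *Dnah* genes were lower there in 1 of 12 and higher in 1, and *Cfap* genes lower in 15 of 31 and higher in 0. Genes of FGF and ERK feedback were higher in shRNA RUS in 15 of 24 and lower in 3, with *Egr1* at 28.03 to 23.6 scaled TPM against 29.3 to 14.1 (difference 0.81, limma adjusted p = 0.00261). Synaptic genes were higher there in 15 of 27 and lower in 1, with *Snap25* at 9.69 to 26.7 against 10.1 to 17.7 (difference 0.65, limma adjusted p = 6.72e-04). The directions of the motile cilia, FGF and ERK feedback and synaptic lists held under each scaling tried. For cholesterol genes 19 of 25 differences were not called, 1 was higher and 5 lower, and with TPM as deposited 6 were higher and 1 lower.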

How the data were processed

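PolyA RNA of NSC cultures was sequenced on a NextSeq 500. Per the study's methods, the authors aligned reads with STAR to mm10 (Ensembl GRCm38.99) and estimated levels with RSEM. They deposited TPM per gene and library, rounded to 0.01, in 1 table per day. The submitters' processing notes also name DESeq, with no version. The tables further hold the authors' comparisons (base mean, log2 fold change, SE, statistic, p and adjusted p), which were not used. Rows of both tables were matched by symbol and position: of 55471 lines, 106 were left out because they could not be matched or named, and 113 symbols that stand on several lines stayed in the fits but are not reported.

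TPM columns were divided by median-ratio factors over genes of at least 1 TPM in every library and tested with limma 3.58.1 (R 4.3.3, eBayes with trend, two-sided, Benjamini-Hochberg) on log2(scaled TPM + 0.1), for genes averaging 0.1 TPM or more. The steps were tested on simulated data. The day contrast used the 8 control libraries and the interaction all 16. Library measures were compared by exact permutation tests over 70 arrangements. Named genes were the 12 largest changes each way among called genes of at least 5 TPM whose days did not overlap, and the lead genes of each list. Some genes that this rule or the lists take are not reported here, though they stayed in the fits and the counts. Genes such as *Enpp6*, *Bcas1*, *Aldh1l1*, *Serpina3n* or *Vim* were named beyond that rule after their values were seen, as were members that moved against their list. The comparison, the lists and the rule were chosen with earlier results of these data known, and 3 lists and 3 symbol families after the values were seen. Alternatives were other pseudocounts, filters, scalings, eBayes without trend, a replicate block, 1 fit over 16 libraries and leaving out each library. Figures used matplotlib 3.10.9.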

Additional observations from a re-analysis of the deposited data

Results flagged for a closer look

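Within the 4 control libraries of a day, a value was singled out where its gap to the nearest library, as a share of the whole range, exceeded Dixon's 95% limit for 4 values. Of 296 groups tested 28 (9.46%) met this, and chance gives about 1 in 20. Replicate 4 of day 7 held 11 of these values and replicate 1 of day 5 held 8. In replicate 4 of day 7, the share of TPM in the 50 most abundant genes was 26.9% (the others at most 25.2%). The same library was highest for *Pax6* (62.6 scaled TPM, the others 55.8 to 56.0), *Slc1a3* (778, the others 706 to 717), *Syt1* (7.03, the others 6.07 to 6.12), *Gad1* (48.3, the others 43.6 to 44.2), *Mki67* (46.7, the others 41.6 to 42.3) and *mt-Co1* (20700, rounded to 3 digits). It was lowest for *Gfap* (608, the others 634 to 638), *Id3* (192, the others 220 to 225), *Mcm2* (33.5, the others up to 38.4) and *Cdkn1c* (6.95, the others 7.98 to 8.12).

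Replicate 1 of day 5 was highest for *Slc14a1* (24.6 scaled TPM), *Pax6* (62.2), *Mdm2* (77.6), *Csf1r* (9.82) and *Rest* (6.34), and lowest for *Ccnb2* (39.7), *Sqle* (75.5) and *Ldha* (333). Replicate 4 of day 5 was highest for *Olig2* (76.0) and *C1qa* (57.5), and replicate 2 of day 5 for *Nes* (63.8). On day 7, replicate 1 was highest for *Dusp6* (27.3), *Tagln* (241) and *Ldha* (258), replicate 2 lowest for *Cdc20b* (27.8), and replicate 3 highest for *Dlx1* (150.0) and lowest for *B2m* (404). The gap was wider than the difference between the means of the days for *Pax6*, *Mki67*, *Mcm2* and *mt-Co1*, which were not called, and narrower for the other genes.

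The change from day 5 to day 7 differed between shRNA RUS and shRNA CON for 50 of 94 lead genes of the lists (limma interaction term over 16 libraries, adjusted p from 3.24e-06 to 0.0455). Over all 23789 genes tested, down to a mean of 0.1 TPM, the shares called were 15.2% higher and 14.6% lower. Values are the log2 fold change in shRNA RUS minus that in shRNA CON, positive in 24 of the 50 lead genes and negative in 26. Differences of single genes were not checked under other scalings. The median difference of all genes was 0.038, and 0.192 with TPM as deposited, so small values are to be read against that shift. The difference was also called for 11 of 22 genes named after their values in the control libraries were seen (*S100b*, *Aldh1l1*, *Atp1b2*, *Enpp6*, *Myrf*, *Fos*, *Fdps*, *Trem2*, *Cd68*, *Socs3* and *Stat3*). Both contrasts share those libraries, so these 11 values are given as a description, and the 23 genes that the rule took by size of change were left out. Lead genes in turn include genes that the study followed in these 16 libraries, such as *Shh*, *Notch2* and *Rest*. Their differences are in part a description too. Of neural genes the day effect was higher in shRNA RUS for *Dcx* (0.62), *Mapt* (0.51), *Snap25* (0.65), *Dlx1* (0.46), *Gad1* (0.59), *Bcl11b* (0.71), *Slitrk3* (0.54) and *Rest* (0.42), and lower for *Nes* (−0.33), *Fabp7* (−0.56), *Neurog2* (−1.12) and *Grin3a* (−0.61). Of glial genes it was higher for *Slc1a2* (0.62), *Aldh1l1* (0.27), *Atp1b2* (0.80) and *Cspg4* (0.69) and lower for *Gfap* (−0.26), *S100b* (−0.57), *Enpp6* (−2.83) and *Myrf* (−1.54). It was lower for the cilia genes *Foxj1* (−0.55) and *Rsph1* (−0.93) and for the microglia genes *Cx3cr1* (−0.71), *Csf1r* (−0.75), *C1qa* (−1.04), *Trem2* (−1.37) and *Cd68* (−0.98).

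Of cell cycle genes the difference was negative for *Pcna* (−0.40), *Rrm2* (−0.25), *Cdk1* (−0.82), *Top2a* (−0.46), *Ccnb2* (−1.05) and *Cdkn1c* (−1.28) and positive for *Cdkn1a* (0.33) and *Mdm2* (0.25). Of signalling genes it was positive for *Spry4* (0.78), *Etv4* (0.42), *Etv5* (0.78), *Egr1* (0.81), *Fos* (0.89), *Socs3* (0.41), *Stat3* (0.54), *Notch1* (1.01), *Notch2* (1.46) and *Hes1* (0.51) and negative for *Dusp6* (−0.63), *Shh* (−0.97), *Id1* (−1.31) and *Id3* (−1.46). Of SRF and YAP targets it was positive for *Acta2* (0.51) and *Tagln* (0.44) and negative for *Ccn1* (−0.33). Of metabolic and stress genes it was positive for *Scd2* (0.34), *Srebf1* (0.67) and *Vegfa* (0.40) and negative for *Fdps* (−0.33), *Sqle* (−0.37), *Ldha* (−0.71), *Trib3* (−1.39), *Asns* (−0.57) and *Rplp0* (−0.42).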

How the results depend on the processing

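Of 139 named genes 120 were called, and 107 of these kept direction and call under all alternatives tried (18, or 17 for 7 of the named genes, *Gm20754* included, that did not pass the filter at a mean of 1 TPM), while 13 lost the call somewhere and 9 uncalled genes gained one. *Aqp4* turned to 0.0708 with quantile normalization (limma adjusted p = 0.398), *Pcna* to 0.0884 (0.0375) with TPM as deposited and 0.1473 (0.00155) with quantile normalization, and *Mcm6* to 0.0398 (0.466) with TPM as deposited. With TPM as deposited 3504 genes were called lower, and the difference between shRNA RUS and shRNA CON was called higher for 5700 and lower for 2053. With a change of at least 1.5-fold required, 3719 genes were higher and 2131 lower, and the interaction gave 1677 and 1487. Leaving out 1 library gave 6011 to 6617 genes higher and 4817 to 5320 lower, kept 89.1% to 93.7% of the calls, and gave 3075 to 4392 and 3063 to 3900 for the interaction. The share of calls that were higher was 50.3% with quantile normalization and 61.3% with 75th percentile scaling, and 84.9% of calls were kept under quantile normalization, with 13 of opposite sign.

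Same-numbered libraries of both days did not deviate together (correlations of −0.027, −0.0015, −0.050 and −0.082, and 0 of 4 numbers correlated best with their own). The main fit therefore did not pair them, though with 4 libraries per day this cannot exclude a shared origin. With the replicate block 5837 genes were higher and 4684 lower. The tables hold TPM without read numbers, so the precision at low levels is unknown.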

Other observations

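The gene with the largest decrease named by rule and another of the 12 largest decreases are neighbours. *Tgm1* (chromosome 14, 55700009 to 55713926, minus strand) and *Dhrs1* (chromosome 14, 55739020 to 55745690, minus strand) lie 25093 bp apart on the same strand of chromosome 14. The protein-coding genes tested around them were lower as well: *Rabggta* between them (62.9 to 27.1 scaled TPM, log2 fold change −1.21, limma adjusted p = 1.30e-07), *Nop9* (58.9 to 27.98, log2 fold change −1.07, limma adjusted p = 2.14e-07) and *Cideb* (3.36 to 1.57, log2 fold change −1.06, limma adjusted p = 0.00379) beyond *Dhrs1*. This stretch was singled out after the values were seen, and *Tgm1* and *Dhrs1* were named for their decreases, so nothing is read from how many of its genes were lower. *Rabggta*, a subunit of the enzyme that attaches lipid anchors to Rab proteins, and *Nop9*, of ribosome assembly, are expressed broadly, and both were about as abundant on day 5 (62.9 and 58.9 scaled TPM). Neighbours overlap here (*Nop9* with *Cideb*), and whether the authors' quantification used strand is not given in the sources used here.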
